A study of Mus musculus with 4 samples.

Results

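The genes described here encode the enzymes and regulators that make fatty acids, elongate and desaturate them, build them into triglyceride and release them again by lipolysis. All 35 genes of a named list were found by symbol among the 52192 gene identifiers of the deposited TPM table, each on 1 row. RNA was sequenced from AML12 cells, a line derived from hepatocytes of a mouse transgenic for human transforming growth factor alpha. The shCtrl group (2 libraries) carried a control short hairpin RNA and the shSafb group (2 libraries) a hairpin against Safb, which encodes the nuclear matrix protein scaffold attachment factor B. Both groups received lentivirus, were grown with 0.1 μM dexamethasone, 10% fetal bovine serum and ITS Liquid Media Supplement, and were collected 5 days after infection. The labels name no other hairpin against Safb, so effects of the hairpin sequence and of less Safb cannot be told apart. Whether replicates came from different cultures is not stated in the labels, and the p-values therefore measure no more than the spread between these 4 libraries, which may be technical.

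In hepatocytes, citrate exported from mitochondria is cleaved to acetyl-CoA in the cytosol, carboxylated to malonyl-CoA and condensed by fatty acid synthase to palmitate. Elongases and desaturases then lengthen and unsaturate palmitate and dietary fatty acids. Stepwise acylation of glycerol phosphate gives phosphatidate, diacylglycerol and triglyceride, which is stored in lipid droplets and hydrolysed in turn by triglyceride, diacylglycerol and monoacylglycerol lipases. Insulin, sterol regulatory element binding proteins (SREBPs), the liver X receptor (LXR) and the carbohydrate response factor ChREBP are known to drive transcription of many of these genes.

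Safb was at 23.8 and 23.3 TPM in the shCtrl libraries and at 15.8 and 15.0 TPM in the shSafb libraries. Both shSafb values were under both shCtrl values, and the log2 difference was -0.56 ± 0.07 (standard error here and below, limma adjusted p = 0.00411). TPM relates a transcript's reads to its length and to the whole library, which makes levels of different genes comparable but hides how many reads lie behind them, and depth is therefore unknown. Mitochondrially encoded genes held 0.703% to 0.845% of the TPM in shCtrl and 0.318% to 0.343% in shSafb, and nuclear small RNA genes held 29.9% to 31.9%. Their part in the results below was not tested beyond a fit without those genes. All 8 hepatocyte markers checked were above 1 TPM, and 1 was called higher, 2 lower and 5 not called. Their summed levels were 9442 and 9488 TPM in shCtrl and 13235 and 13408 TPM in shSafb. The higher sum is that of Trf (transferrin), which went from a mean of 2440 to 6800 TPM, while Alb (albumin) fell from 362 to 124 TPM and Apoa1 from 56.4 to 28.1 TPM. None of the 6 adipocyte markers reached 1 TPM, 4 of them, including Adipoq and Plin1, were listed at 0 in all libraries, and the list summed to between 0.169 and 0.442 TPM. The 3 endothelial markers summed to at most 0.144 TPM, the 5 fibroblast or stellate markers to 2.65 to 3.32 TPM in all libraries, and the 4 leukocyte markers to 1.51 and 1.77 TPM in shCtrl against 2.83 and 3.09 TPM in shSafb. Among the leukocyte markers Csf1r rose from a mean of 0.345 to 1.82 TPM, Cd68 was at 1.01 and 0.692 TPM, and Adgre1 was listed at 0 throughout.

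In the shSafb libraries the genes for the hormone-sensitive lipase Lipe and the desaturase Scd1 rose several-fold, those for Fads3, Scd2 and the citrate-cleaving enzyme Acly rose by smaller amounts, and those for the elongase Elovl5 and the carboxylase Acaca fell. The steps did not move as a block. Of the 35 members, 30 had a mean of at least 1 TPM over the 4 libraries and were tested. Of those, 11 were higher in shSafb, 3 were lower and 16 did not pass the threshold (limma on log2(scaled TPM + 1), Benjamini-Hochberg adjusted p under 0.05 over 13111 genes). That is 46.7% of the tested members called, where 44.3% of all tested genes were called, so the share called is close to that of the whole table. By direction, 36.7% were higher and 10.0% lower, against 21.9% and 22.4% of all tested genes. Because the members were chosen with earlier results of these data known, this split cannot be read as a result about lipid genes. The median log2 change was 0.12 over the tested members and 0.00 over all tested genes. In 19 of the 30 tested members, or 63.3%, the shCtrl and shSafb values did not overlap, and over all tested genes that share was 74.7%. Counting only calls that also changed 1.5-fold or more, 5 members were higher and 2 lower, while 20.7% of all tested genes were called. In cell populations, fewer cells expressing a gene and less of its RNA per cell cannot be told apart.

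**Figure D1:**
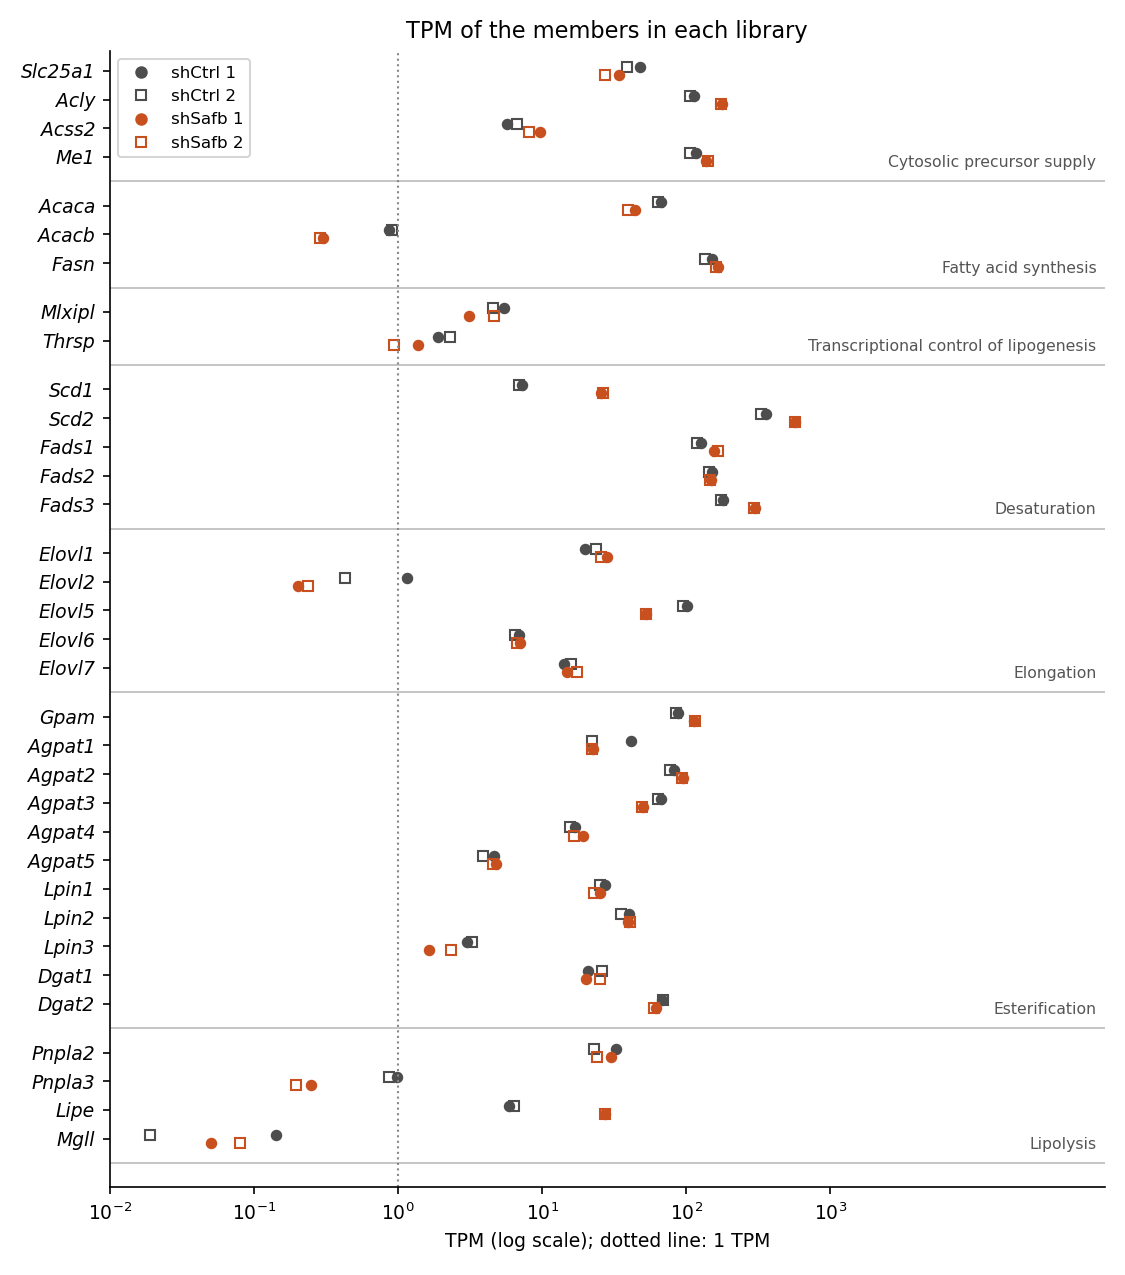
TPM on a log axis for the 34 members listed above 0, in each library, grouped by step. Circles are replicate 1 and squares replicate 2, grey is shCtrl and orange shSafb, and the dotted line marks 1 TPM. Lipe, Scd1 and Fads3 sit clear of their shCtrl values to the right and Elovl5 and Acaca to the left, while Agpat1 has a lone high point at 41.6 TPM in shCtrl replicate 1.

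As to level, Scd2 was the most abundant member in every library, at 356 and 328 TPM in shCtrl and 565 and 571 TPM in shSafb. Next in shCtrl came Fads3, at 180 and 175 TPM. Fads2 (151 and 143 TPM) and Fasn (151 and 134 TPM) followed and overlapped each other. Acly and Me1 also overlapped, at 107 to 113 and 107 to 116 TPM. At the low end, Elovl3, an elongase of saturated very long chains, was listed at 0 in all 4 libraries, and Mgll stayed at or under 0.142 TPM. The summed TPM of all 35 members was 1969 and 1835 in shCtrl and 2382 and 2368 in shSafb, so the shSafb libraries were higher by more than the spread between replicates. Abundant members weigh most in that sum: mean TPM went from 342 to 568 for Scd2, 177 to 298 for Fads3 and 110 to 175 for Acly. By step the summed TPM changed from 0.704-fold (transcriptional control) to 1.58-fold (lipolysis), with 0.984-fold for fatty acid synthesis and 1.03-fold for esterification.

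Among the genes that supply cytosolic acetyl-CoA and reducing power, 3 of 4 were higher in shSafb, where 21.9% of all tested genes were, and the citrate carrier did not pass. The call of Acss2, among those 3, was lost in 9 of 15 alternatives. Acly, the ATP citrate lyase that cleaves citrate to acetyl-CoA, was at 113 and 107 TPM in shCtrl and 176 and 173 TPM in shSafb. Its groups lay far apart relative to their replicates, with a log2 difference of 0.69 ± 0.04 (limma adjusted p = 0.000934). Me1, the cytosolic malic enzyme that makes NADPH, was at 116 and 107 against 138 and 142 TPM (log2 change 0.35 ± 0.05, adjusted p = 0.00544). About 26.5% of the 50-base words of the longest Me1 transcript also occur in the processed copies Gm7049 and Gm7329, which averaged 3.57 and 0.594 TPM in shCtrl and 5.32 and 1.5 TPM in shSafb. Reads could be split with those copies, and Me1 is uncertain to that extent.

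Acss2, which makes acetyl-CoA from acetate, was low, at 5.75 and 6.73 TPM in shCtrl and 9.61 and 8.11 TPM in shSafb. Its call (log2 change 0.47 ± 0.14, limma adjusted p = 0.0488) was at the threshold. It was lost without shCtrl replicate 1 (adjusted p = 0.163), shCtrl replicate 2 (0.0593), shSafb replicate 1 (0.174) or shSafb replicate 2 (0.0647), and the adjusted p ran from 0.0431 to 0.174 over the 15 alternatives. Exons of Acss2 overlap Ggt7 and Gss on the opposite strand. Ggt7 rose from 5.37 to 7.04 mean TPM and Gss was at 40.6 and 52.0 against 34.4 and 36.7 TPM, and their part in the Acss2 value was not tested.

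Slc25a1, the mitochondrial citrate carrier, went the other way without passing the threshold. It was at 48.1 and 39.0 TPM in shCtrl and 34.3 and 27.5 TPM in shSafb, so the groups did not overlap, but the replicates of each group were widely spaced (log2 change -0.46 ± 0.14, limma adjusted p = 0.0534). It passed without shSafb replicate 1 (-0.61, adjusted p = 0.0407) and in the fit from which mitochondrial and small RNA genes were removed (-0.46, adjusted p = 0.0483), over a range of 0.0131 to 0.183 in the alternatives. Summed over the 4 supply genes, the level was 283.1 and 260.2 TPM in shCtrl and 358.7 and 350.2 TPM in shSafb, most of it Acly and Me1.

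The enzymes of fatty acid synthesis proper divided. Acaca, acetyl-CoA carboxylase alpha, which makes the malonyl-CoA used for chain building, fell from 66.3 and 63.8 TPM in shCtrl to 44.0 and 39.2 TPM in shSafb (log2 change -0.61 ± 0.07, limma adjusted p = 0.00419). Fasn, the fatty acid synthase that uses malonyl-CoA, was at 151 and 134 TPM in shCtrl and 165 and 162 TPM in shSafb. That rise was small, with a log2 change of 0.22 ± 0.06 (adjusted p = 0.0319), and its call was lost in 7 of 15 alternatives. The limma adjusted p was 0.0519 with a filter of 0.1 TPM, 0.0782 with none, 0.0772 without scaling and 0.0772 without the intensity trend. The call was also lost without shCtrl replicate 2 (log2 change 0.16), shSafb replicate 1 (0.21) or shSafb replicate 2 (0.25). Because each library holds both genes, their ratio does not depend on how libraries are scaled. Fasn over Acaca was 2.28 and 2.10 in shCtrl and 3.75 and 4.12 in shSafb. No 2 against 2 permutation can go below p = 0.333, so the within-library ratios are given as values with no test.

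Acacb, the carboxylase isoform at the mitochondrial surface whose malonyl-CoA restrains fatty acid oxidation, was under the filter. It was at 0.866 and 0.916 TPM in shCtrl and 0.303 and 0.287 TPM in shSafb, and the groups did not overlap. When genes with a mean of at least 0.1 TPM were tested, its log2 change was -0.54 (limma adjusted p = 0.0231). Of the Acaca transcript's 50-base words, 52.6% also occur in the processed copy Gm5182. That copy averaged 0.479 TPM in shCtrl and 0.214 TPM in shSafb, far under Acaca itself. Reads could be split with Gm5182 in a way that was not tested, and Acaca and Fasn over Acaca are uncertain to that extent. The sum of Acaca, Acacb and Fasn was 218.2 and 198.8 TPM in shCtrl and 209.3 and 201.1 TPM in shSafb, and these ranges overlap.

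Regulators of lipogenic transcription within the list were low in these cells. Mlxipl, which encodes ChREBP, was at 5.44 and 4.60 TPM in shCtrl and 3.10 and 4.61 TPM in shSafb, with overlapping groups (log2 change -0.30 ± 0.18, limma adjusted p = 0.240). Thrsp, encoding a thyroid hormone responsive protein that promotes lipogenesis, was at 1.91 and 2.28 against 1.37 and 0.936 TPM. The Thrsp groups did not overlap, but the difference did not pass (log2 change -0.51 ± 0.18, adjusted p = 0.0726).

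Among the desaturases 4 of 5 members were higher and 0 lower, where 21.9% of all tested genes were higher, and the summed level was 820.0 and 771.6 TPM in shCtrl against 1195 and 1205 TPM in shSafb. Scd1, a stearoyl-CoA desaturase that makes monounsaturated fatty acids and is the main hepatic form in mice, rose from 7.21 and 6.93 TPM to 25.7 and 26.3 TPM. That is 3.68-fold, a log2 change of 1.77 ± 0.07 (limma adjusted p = 0.000595). Scd2, its paralog that is known from brain and neonatal liver, rose 1.66-fold with a log2 change of 0.76 ± 0.04 (adjusted p = 0.000852). Despite the larger fold, Scd1 remained the minor form: it made up 1.99% and 2.07% of the TPM of Scd1 to Scd4 in shCtrl and 4.36% and 4.40% in shSafb. Scd3 and Scd4 were at or under 0.194 TPM in every library.

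Scd1 (minus strand, 44394455 to 44407879) and Scd2 (plus strand, 44293674 to 44306864) lie 87590 bases apart on chromosome 19 of mm10. Of the 50-base words of the longest Scd1 transcript, 4.66% also occur in other genes, among them Scd2, Scd3 and Scd4. For Scd2 that share was 4.01%. Because Scd2 was far more abundant, reads shared by the pair leave Scd1 the more uncertain of them. The ratio of Scd2 to Scd1 was 49.4 and 47.3 in shCtrl and 22.0 and 21.7 in shSafb, and how the counting assigned shared reads was not tested.

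The Fads genes lie together elsewhere on chromosome 19 and differed from each other. Fads3 (plus strand, 10041569 to 10060110), a family member that desaturates sphingoid bases, rose from 180 and 175 TPM to 299 and 297 TPM, or 0.77 ± 0.04 on the log2 scale (limma adjusted p = 0.000782). Fads2 (minus strand, 10062765 to 10101746), the entry desaturase of polyunsaturated fatty acid synthesis, runs towards Fads3, and the 3′ ends of the pair are separated by 2654 bases. It was at 151 and 143 TPM in shCtrl and 148 and 146 TPM in shSafb, with overlapping groups (log2 change 0.03 ± 0.04, adjusted p = 0.601). Fads1 (plus strand, 10182888 to 10196877), which acts later in the same pathway, rose from 126 and 119 TPM to 157 and 165 TPM (log2 change 0.42 ± 0.05, adjusted p = 0.00367). Fads3 made up 39.3% and 40.2% of the TPM of the 3 genes in shCtrl and 49.5% and 48.8% in shSafb. Fads2 and Fads3 transcripts share 0.161% and 0.137% of the 50-base words of their longest transcripts, and read assignment between these neighbours was not tested.

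Elongation was the step where the leading gene fell. Elovl5, which elongates polyunsaturated fatty acids and works between the Fads2 and Fads1 reactions, went from 101 and 95.4 TPM in shCtrl to 52.3 and 52.5 TPM in shSafb. This was a 1.87-fold fall, with a log2 difference of -0.86 ± 0.04 (limma adjusted p = 0.000797), and the replicates of shSafb were nearly equal. Elovl5 held 70.5% and 67.2% of the TPM of the elongase family in shCtrl and 50.9% and 51.2% in shSafb. The family total was 143 and 142 TPM in shCtrl and 103 and 102 TPM in shSafb.

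None of the other elongases passed the test. Elovl6, which turns palmitate into stearate, was at 6.93 and 6.51 against 6.98 and 6.67 TPM (log2 change 0.04 ± 0.09, limma adjusted p = 0.732), and Elovl7, an elongase of saturated chains, was at 14.2 and 15.9 against 15.0 and 17.6 TPM (0.13 ± 0.12, adjusted p = 0.414). Both had overlapping groups. Elovl1, which makes very long saturated chains, was at 19.8 and 23.7 TPM in shCtrl and 28.2 and 25.5 TPM in shSafb, a log2 change of 0.32 ± 0.12 (adjusted p = 0.0988). It passed without shCtrl replicate 2 (0.46, adjusted p = 0.0416) and with a GC and length trend removed (0.42, adjusted p = 0.0456), over a range of 0.0416 to 0.289. An exon of Elovl1 overlaps Cdc20, a mitotic gene on the opposite strand that rose from 12.4 to 30.3 mean TPM, and its part in the Elovl1 value was not tested. Elovl2, an elongase of the longest polyunsaturated chains, was at 1.16 and 0.426 TPM in shCtrl and 0.202 and 0.237 TPM in shSafb, under the filter.

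**Figure D2:**
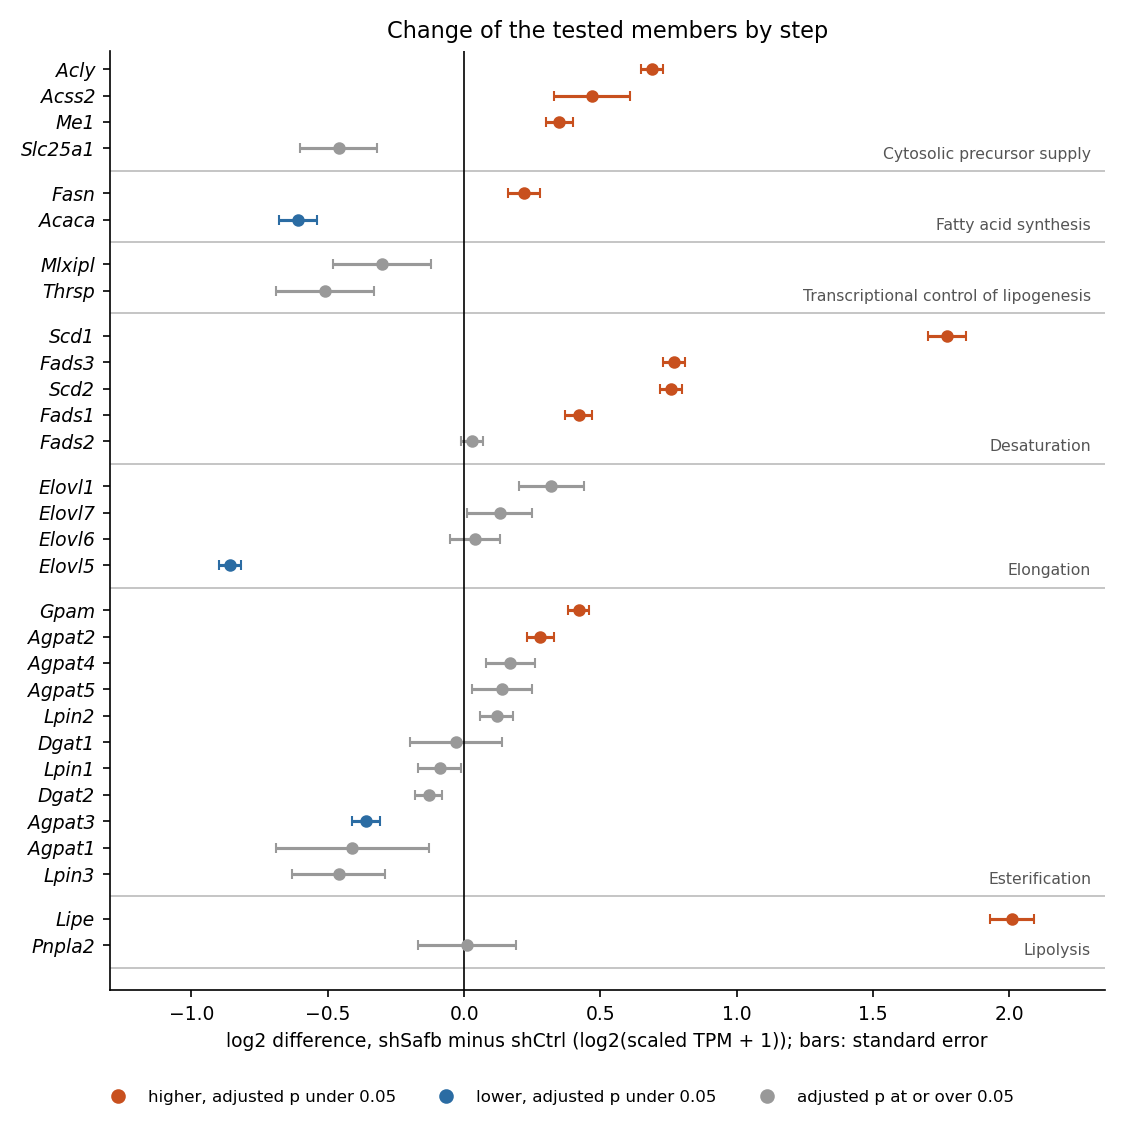
Log2 difference of shSafb minus shCtrl on the log2(scaled TPM + 1) scale for the 30 tested members, ordered by step. Points are limma estimates, bars are standard errors, orange and blue mark higher and lower members with an adjusted p under 0.05, and grey the rest. Lipe at 2.01 and Scd1 at 1.77 stand farthest to the right and Elovl5 at -0.86 farthest to the left, and each step apart from transcriptional control holds coloured points.

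For the 2 synthesis or desaturation members with the largest called rise (Scd1 and Fads3) and the 2 members with the largest called fall (Elovl5 and Acaca), the 250 bases before the RefSeq start (GRCm38.p6) are printed so that the start regions of genes that rose and fell can be compared. By symbol 28 of 35 members matched, and Scd1 is named only. Capitals mark matches, on either strand, to the Sp1 GC box GGGCGG, the NF-Y box CCAAT, the E-box CACGTG or an SREBP-type site, TCACNCCA. The sequences run 5′ to 3′ in the direction of transcription and end at the base before the start. Fads3, which rose, is at chr19:10041298-10041547 (plus strand). Elovl5, which fell, is at chr9:77917115-77917364 (plus strand).
Fads3: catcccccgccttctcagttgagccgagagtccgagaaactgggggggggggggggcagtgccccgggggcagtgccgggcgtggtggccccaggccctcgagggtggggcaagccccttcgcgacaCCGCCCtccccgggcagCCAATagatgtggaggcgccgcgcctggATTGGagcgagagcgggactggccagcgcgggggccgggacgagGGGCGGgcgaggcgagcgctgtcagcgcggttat
Elovl5: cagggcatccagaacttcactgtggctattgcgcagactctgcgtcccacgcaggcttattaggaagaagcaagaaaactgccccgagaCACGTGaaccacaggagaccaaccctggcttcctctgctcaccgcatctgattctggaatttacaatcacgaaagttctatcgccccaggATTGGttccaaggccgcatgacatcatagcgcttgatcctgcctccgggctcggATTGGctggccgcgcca

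Acaca, which also fell, has its only listed start 65766 bases inside the GENCODE gene, at chr11:84195188-84195437 (plus strand). That window holds none of the 4 motifs, but it may not be the promoter used in these cells. The bases before the GENCODE start of Acaca were not searched, so nothing is said of motifs there.
Acaca: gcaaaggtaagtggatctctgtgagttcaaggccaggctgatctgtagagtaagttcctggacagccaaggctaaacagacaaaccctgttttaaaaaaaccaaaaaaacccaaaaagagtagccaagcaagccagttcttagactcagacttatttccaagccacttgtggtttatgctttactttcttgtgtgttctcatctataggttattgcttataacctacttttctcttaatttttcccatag

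The Fads3 window held 2 CCAAT boxes, 106 and 78 bases before the start, and 2 GC boxes, and the Elovl5 window held 2 CCAAT boxes and 1 E-box. So a CCAAT box was present before a gene that rose and before a gene that fell. Among all 32851 RefSeq windows of this length, 33.8% held a CCAAT box, 32.7% a GC box, 6.02% the E-box and 3.67% the SREBP-type letters. For the 28 matched members, identical windows of a gene were counted once, a step not applied to the 32851 windows. Of the 39 windows that remained, 15 held a CCAAT box, 22 a GC box, 6 the E-box, and 2, before Mlxipl and Gpam, the SREBP-type letters. The Mlxipl match lies before a start 17001 bases inside the GENCODE gene, and the window at the GENCODE start of Mlxipl lacked those letters. Windows of a gene can overlap and are not independent. A match is a description of the letters in the window and not a measured site.

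Of the 11 esterification genes 2 were higher, 1 was lower and 8 did not pass, or 27.3% called where 44.3% of all tested genes were. Gpam, the mitochondrial glycerol phosphate acyltransferase that commits acyl-CoA to glycerolipid, rose from 87.7 and 85.1 TPM to 113 and 115 TPM (log2 change 0.42 ± 0.04, limma adjusted p = 0.00282). The following acylation is carried out by the Agpat enzymes, which moved in different directions. Agpat2, the form whose loss causes lipodystrophy, was at 81.7 and 76.6 against 95.2 and 93.3 TPM (0.28 ± 0.05, adjusted p = 0.0103), a call lost without shSafb replicate 1 (adjusted p = 0.0605; range 0.00629 to 0.0605). Agpat3, another acyltransferase of the family, fell from 66.9 and 64.0 TPM to 50.2 and 49.5 TPM (-0.36 ± 0.05, adjusted p = 0.0053). Within each library the ratio of Agpat2 to Agpat3 was 1.22 and 1.20 in shCtrl and 1.9 and 1.88 in shSafb. Agpat2 overlaps Egfl7 on the opposite strand, which was at 14.0 and 13.7 TPM in shCtrl and 14.4 and 15.5 TPM in shSafb.

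Agpat1 showed how much a lone library can weigh. It was at 41.6 TPM in shCtrl replicate 1 but at 22.2 TPM in shCtrl replicate 2, against 22.4 and 22.1 TPM in shSafb (log2 change -0.41 ± 0.28, limma adjusted p = 0.280). The log2 change was -0.01 without shCtrl replicate 1 and -0.83 without shCtrl replicate 2, with adjusted p-values of 0.946 and 0.0101. Exons of Agpat1 overlap Egfl8 on the opposite strand, which rose from 1.67 to 3.85 mean TPM, and its part in the Agpat1 value was not tested. Agpat4 (16.8 and 15.5 against 19.3 and 16.7 TPM) and Agpat5 (4.67 and 3.89 against 4.81 and 4.60 TPM) had overlapping groups. The 5 Agpat genes together were at 212 and 182 TPM in shCtrl and 192 and 186 TPM in shSafb.

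The phosphatidate phosphatases and diacylglycerol acyltransferases, which finish triglyceride, did not pass. Lpin1 was at 27.4 and 25.1 TPM in shCtrl and 25.3 and 23.0 TPM in shSafb, with a log2 change of -0.09 ± 0.08. Lpin2 was at 39.8 and 35.5 against 39.6 and 40.5 TPM (0.12 ± 0.06), and both genes had overlapping groups. Lpin3, the least abundant lipin, was at 2.99 and 3.28 against 1.64 and 2.33 TPM, without overlap (-0.46 ± 0.17, limma adjusted p = 0.0817). Dgat1 was at 20.8 and 26.0 TPM in shCtrl and 20.0 and 25.1 TPM in shSafb, a spread within each group far larger than the difference between them (-0.03 ± 0.17, adjusted p = 0.909). Dgat2, the acyltransferase tied to newly made fatty acids, was at 67.5 and 68.6 against 62.0 and 60.1 TPM, with no overlap but a small change (-0.13 ± 0.05, adjusted p = 0.120). Dgat2 was 2.39 to 3.24 times Dgat1 in all 4 libraries.

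Lipolysis held the largest change of the whole list. Lipe, the hormone-sensitive lipase that hydrolyses diacylglycerol, triglyceride and cholesteryl esters, rose from 5.94 and 6.36 TPM in shCtrl to 27.5 and 27.4 TPM in shSafb. That is 4.46-fold, with a log2 difference of 2.01 ± 0.08 (limma adjusted p = 0.000611), and the log2 change was 1.94 to 2.16 over 15 alternatives. Lipe (ENSMUSG00000003123) lies on chromosome 7 (25379527 to 25398710, minus strand). Its exons overlap 4732471J01Rik on the opposite strand, which fell from 4.60 and 5.79 TPM to 2.68 and 2.12 TPM (log2 change -0.84 ± 0.17, adjusted p = 0.0172), opposite in direction to Lipe. The libraries were strand-specific, but no source used here says whether counting used strand.

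For the gene with the largest rise, the 250 bases before a RefSeq start 2723 bases inside the GENCODE gene are also shown, chosen after its values were seen. This Lipe window, at chr7:25395988-25396237 (minus strand), is marked in the same way.
Lipe: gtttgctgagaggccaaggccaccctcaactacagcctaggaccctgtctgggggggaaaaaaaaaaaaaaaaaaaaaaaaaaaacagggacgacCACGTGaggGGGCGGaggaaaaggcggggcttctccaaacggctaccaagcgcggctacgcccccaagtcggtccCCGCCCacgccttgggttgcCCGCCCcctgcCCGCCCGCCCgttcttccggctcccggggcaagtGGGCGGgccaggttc

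It held 6 GC boxes, of which 2 overlap each other, and 1 E-box. The window before the other listed Lipe start held none of the 4 motifs, and gene-level TPM does not say which start was used.

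Pnpla2, the adipose triglyceride lipase that takes the first step of lipolysis, was at 32.4 and 22.9 TPM in shCtrl and 30.2 and 24.2 TPM in shSafb, with overlapping groups (log2 change 0.01 ± 0.18, limma adjusted p = 0.963). Lipe over Pnpla2 within a library was 0.183 and 0.277 in shCtrl and 0.911 and 1.13 in shSafb. Pnpla3, a lipid droplet protein of the same family, was under the filter at 0.986 and 0.868 against 0.251 and 0.197 TPM, without overlap. With genes from a mean of 0.1 TPM tested, its log2 change was -0.65 (adjusted p = 0.015). Exons of Pnpla3 overlap Gm49513 on the same strand, where 4.51% of the 50-base words of the longest Pnpla3 transcript also occur. The part of Gm49513 in the Pnpla3 value was not tested. Mgll, the monoacylglycerol lipase of the last step, was near 0 in all libraries, at 0.142 and 0.0191 TPM in shCtrl and 0.0508 and 0.0808 TPM in shSafb.

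**Figure D3:**
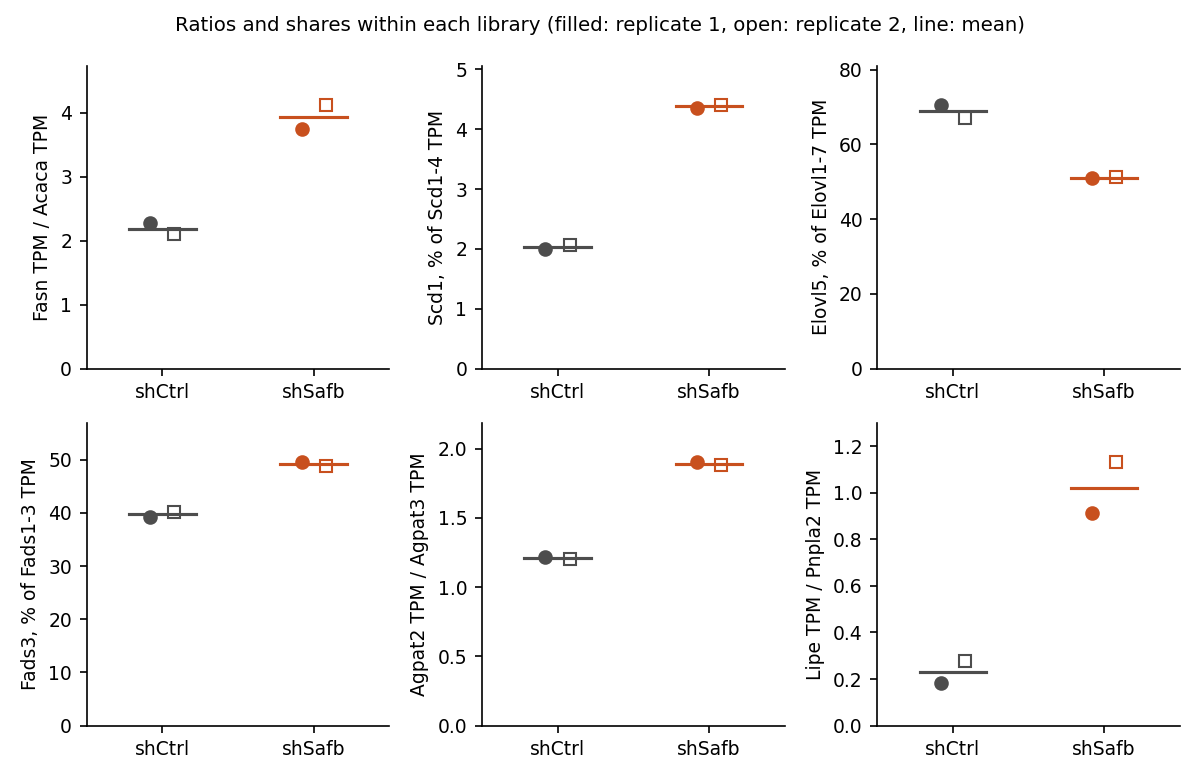
Ratios of TPM and shares of a family's TPM within each library, 6 panels with linear axes from 0. Filled circles are replicate 1, open squares replicate 2, and lines the mean of the 2 libraries. In every panel the shCtrl and shSafb values do not overlap, as with Fasn over Acaca at 2.10 to 2.28 against 3.75 to 4.12. The panels are part of a larger set of computed ratios and shares. Of those not drawn, Acly over Acss2 (19.6 and 16.0 in shCtrl, 18.4 and 21.3 in shSafb) and Dgat2 over Dgat1 (3.24 and 2.64 against 3.10 and 2.39) overlapped, and the rest did not. Among all tested genes, 74.7% did not overlap in TPM.

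Of 85 other genes of lipid metabolism in 7 lists, 61 were tested, and 14 were higher and 20 lower in shSafb, or 55.7% called against 44.3% of all tested genes. These lists too were chosen with earlier results known, so their shares, here and below, cannot be read as a result about lipid genes. The lists moved both ways (median log2 changes of -0.29 to 0.23), and each holds few genes, so that their counts below are to be read against 21.9% higher and 22.4% lower among all tested genes. Among 16 genes of SREBP, LXR and ChREBP control, 3 were higher and 4 lower. Insig1, which retains SREBPs in the endoplasmic reticulum and is itself an SREBP target, rose from 16.2 and 16.1 TPM to 47.3 and 45.0 TPM (log2 change 1.48 ± 0.06, limma adjusted p = 0.00062). Srebf2, which encodes the sterol-directed SREBP, fell from 31.1 and 26.8 TPM to 18.0 and 18.5 TPM (-0.61 ± 0.08, adjusted p = 0.00504). Srebf1, the gene of the SREBP that drives fatty acid synthesis, named after its values were seen, was at 66.1 and 65.9 against 78.2 and 82.4 TPM (0.30 ± 0.05, adjusted p = 0.0118).

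Fatty acid activation and reducing power showed mixed changes. Of 5 tested acyl-CoA synthetase genes 2 were higher and 1 lower, with Acsl4, which prefers arachidonate, at 87.1 and 83.3 against 116 and 122 TPM, and Acsl3, a lipid droplet form, at 22.9 and 19.4 against 33.8 and 32.9 TPM. Among 5 tested NADPH supply genes 1 was higher and 2 lower. Me2, the mitochondrial malic enzyme, fell from 64.8 and 64.5 TPM to 25.3 TPM in both shSafb libraries (log2 change -1.29 ± 0.05, limma adjusted p = 0.000611), whereas the cytosolic enzyme Me1 rose. Pgd, an enzyme of the pentose phosphate pathway, fell from 70.1 and 67.4 TPM to 53.1 and 52.4 TPM.

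Of 9 tested partners of the elongases and desaturases 4 were lower and 1 higher, or 55.6% called, near the 44.3% of all tested genes. Cyb5a, the microsomal cytochrome b5 that feeds electrons to Scd and Fads desaturases, fell from 200.4 and 193 TPM to 107 and 99.3 TPM (log2 change -0.90 ± 0.05, limma adjusted p = 0.000957). Cyb5b, its outer mitochondrial membrane counterpart, rose from 86.0 and 81.8 TPM to 131 and 137 TPM (0.70 ± 0.05, adjusted p = 0.00107). Of 9 tested acyltransferases outside the members 3 were lower and 1 higher. Lpcat3, which loads polyunsaturated chains onto phospholipids, fell from 153 and 145 TPM to 91.4 and 82.5 TPM, and Mboat1, another lysophospholipid acyltransferase, from 17.8 and 19.9 TPM to 10.6 and 10.8 TPM.

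Of 9 tested lipid droplet genes 3 were higher and 4 lower, or 77.8% called where 44.3% of all tested genes were, a difference that was not tested. G0s2, which encodes an inhibitor of the lipase made by Pnpla2, rose from 31.3 and 33.1 TPM to 58.8 and 56.4 TPM (log2 change 0.85 ± 0.07, limma adjusted p = 0.00175). Abhd5, the coactivator of the same lipase, named after its values were seen, fell from 25.3 and 28.0 TPM to 16.0 and 18.3 TPM (-0.58 ± 0.11, adjusted p = 0.0129). Plin3, a droplet coat protein, fell from 193 TPM in both shCtrl libraries to 133 and 126 TPM. Other lipases were higher in 3 of 8 tested cases and lower in 2, with Lpl, the lipoprotein lipase, rising from 10.2 and 8.36 TPM to 17.9 and 19.1 TPM, and Pnpla6, a lysophospholipase, falling from 22.3 and 19.6 TPM to 10.2 and 10.9 TPM.

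**Figure D4:**
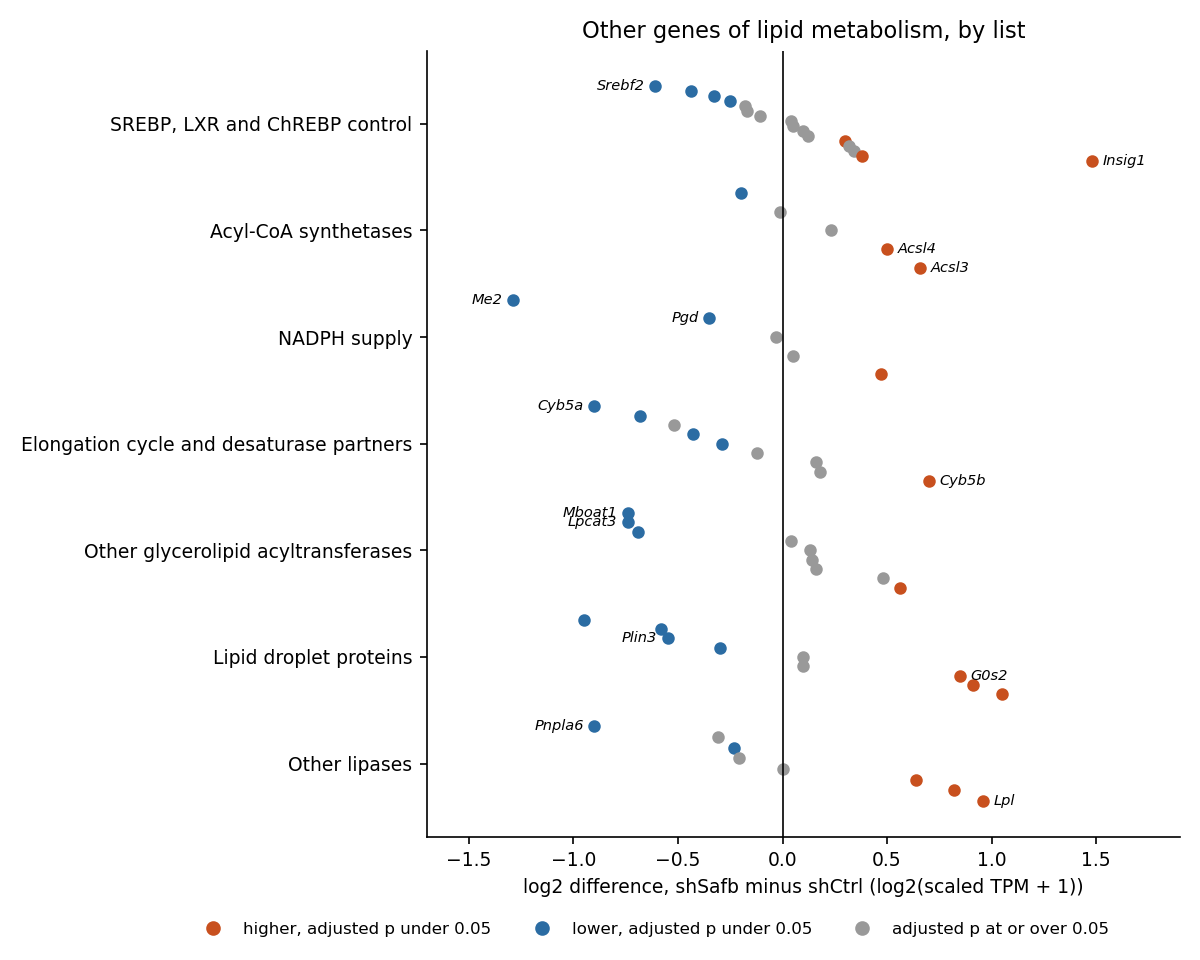
Log2 difference of shSafb minus shCtrl on the log2(scaled TPM + 1) scale for the 61 tested genes of the 7 other lipid lists, 1 point a gene. Orange and blue mark genes with an adjusted p under 0.05, grey the rest, and the labels are the genes named by rule. Each list holds points on both sides of 0, from Me2 at -1.29 to Insig1 at 1.48.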

How the data were processed

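The authors deposited TPM (length-scaled, with a fixed library total) for each gene in 4 libraries. The submitters' processing notes name mm10 and the tools HISAT2, HTSeq, DESeq2 and StringTie. Ribosomal RNA was removed and libraries kept strand, per the labels' protocols. Tool versions, the annotation release and the use of strand in counting are not given in the sources used here. Groups and replicate numbers come from the titles.

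Repeated rows of 6 identifiers were added up. Positions and gene types came from GENCODE mouse release 21 (GRCm38), which holds 52045 of 52192 identifiers. Genes with a mean of at least 1 TPM were tested (13111). Libraries were scaled by the median ratio to the geometric mean (factors 0.991 to 1.031), and log2(scaled TPM + 1) was fitted with limma 3.58.1 in R 4.3.3 (group only, intensity trend, two-sided, 2 residual and 2.61 prior degrees of freedom). Adjusted p-values are Benjamini-Hochberg over all tested genes, log2 changes are shSafb minus shCtrl with SE, and they understate the change of low genes. The fit was also run on simulated data with independent errors, in which a far smaller share of genes changed than was called here. That run therefore gives no error rate for these data. Printed TPM are as deposited.

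The members and lists were chosen with earlier results of these data known. The rule named Safb, all members, and the 2 called genes with the smallest p of each other list. Overlapping genes and copies were named for that relation. Alternatives covered the pseudocount, filter, scaling, variance model, replicate block, each library, a fold threshold and a GC and length trend. Promoter windows are RefSeq's (GRCm38.p6). Tables and plots were made in Python 3.11.15 (numpy 2.4.6, pandas 2.3.3, matplotlib 3.10.9).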

Additional observations from a re-analysis of the deposited data

How the results depend on the processing

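Depth is unknown, so limits from counting could not be set. Of the 14 called members, 11 kept their call under all 15 alternatives that refit the data, and Acss2, Fasn and Agpat2 did not. When calls also had to pass a fold of 1.5, 5 members were higher and 2 lower, 1303 and 1408 of all genes passed, and Safb (-0.56) was just short. With genes from a mean of 0.1 TPM tested, or with no filter, 5 members were lower, Acacb and Pnpla3 being added. In the same fits 9 members were higher, Acss2 and Fasn being lost. Of all genes, 2986 of 18480 were lower with the 0.1 TPM filter and 2638 of 24037 with none. The shares called in either direction were 31.4% and 21.1%. Leaving out each library in turn gave 1768 to 2124 genes higher in all, fewest without shSafb replicate 1 and 1814 without shSafb replicate 2, against 2867 in the full fit.

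Pnpla2, not called in any fit, changed sign, to -0.0054 and -0.0062 with the lower filter or none, -0.0127 without scaling, and from -0.21 (without shCtrl replicate 2) to 0.22 (without shCtrl replicate 1) with each library left out, including -0.14 without shSafb replicate 1. Dgat1, likewise uncalled, reached 0.14 without shCtrl replicate 2, 0.13 without shSafb replicate 1 and 0.0522 after removal of the GC and length trend, and was -0.21 without shCtrl replicate 1. The causes were not tested.

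The labels do not say whether same-numbered libraries were paired. Deviations of same-numbered libraries correlated at -0.06 across genes. With 2 libraries per group that value cannot decide whether they were paired, and pairing was not tested. With the replicate block 2540 genes were higher and 2686 lower, Slc25a1 passed (-0.46, adjusted p = 0.0131) and Acss2 did not (0.47, adjusted p = 0.0745). The same alternatives were applied to the 14 other genes named by rule after the data were seen. All 14 kept their call in the 15 refits, which their choice by smallest p favours, so this says nothing about stability.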
